A study of Mus musculus with 27 samples.

Results

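The mouse Toll-like receptor genes measured here are 10, Tlr1 to Tlr9 and Tlr13, followed across 9 conditions of cultured macrophages. Their probes were found by the gene name in the array file of the first naïve array, which gave 14 probes of the 55681 on the array and 10 of its 34844 gene names. Bone marrow-derived macrophages (BMDM) were grown for 7 days in medium conditioned by L929 cells, a fibroblast line that secretes the macrophage growth factor CSF1, from the marrow of female C57BL/6 mice of 6 to 8 weeks with no altered gene. Naïve cells received no ligand. Acute cells received a single ligand for 4 h, and re-stimulated cells had met the same ligand for 24 h before they were washed and given it again for 4 h. The ligands were lipopolysaccharide (LPS, 100 ng/ml), the lipopeptide Pam3CSK4 (100 ng/ml), the double-stranded RNA mimic Poly(I:C) (10 µg/ml) and unmethylated CpG DNA, for which the labels give 100 µM and the methods a lower concentration. Of 27 arrays the authors kept 25, so that re-stimulated LPS and acute Pam3CSK4 have 2 arrays each and the other 7 groups 3. At one place the methods take each replicate from a different mouse and at another from pooled marrow (the labels speak of independent experiments), so the p-values measure the spread between these arrays.

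Toll-like receptors are membrane proteins that bind conserved parts of microbes and recruit adapter proteins through a shared intracellular domain. Tlr2 pairs with Tlr1 or Tlr6 to bind lipopeptides at the cell surface, Tlr4 binds LPS together with Ly96 and Cd14, and Tlr5 binds flagellin. Tlr3, Tlr7, Tlr8, Tlr9 and Tlr13 sit in endosomes and are known for sensing nucleic acids, with double-stranded RNA for Tlr3, single-stranded RNA for Tlr7, DNA with unmethylated CpG for Tlr9 and bacterial ribosomal RNA for Tlr13. Macrophages use them to start the transcription of cytokines and interferons.

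RefSeq promoter windows (GRCm38.p6), which run from 250 bases before to 50 bases after a gene start, were at hand for 8 of the 10 receptors (all but Tlr4 and Tlr7), Tlr1 and Tlr6 having 2 windows each. The 4 printed here belong to the receptors called in more than 1 comparison, with matches to motifs of factors downstream of these receptors in capitals. The NF-kB consensus, the interferon-stimulated response element (GAAA, 2 bases of any kind, GAAA), the AP-1 motif TGANTCA and the PU.1 motif GAGGAA were searched on both strands.
Tlr2 promoter (chr3:83841559-83841858, minus strand): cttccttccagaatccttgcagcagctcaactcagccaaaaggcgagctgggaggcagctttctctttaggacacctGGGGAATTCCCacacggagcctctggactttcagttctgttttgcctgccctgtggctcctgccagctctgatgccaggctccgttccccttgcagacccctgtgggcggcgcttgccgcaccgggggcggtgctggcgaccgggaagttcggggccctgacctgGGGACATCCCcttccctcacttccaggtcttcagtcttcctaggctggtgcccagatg
Tlr6 promoter (chr5:64959117-64959416, minus strand): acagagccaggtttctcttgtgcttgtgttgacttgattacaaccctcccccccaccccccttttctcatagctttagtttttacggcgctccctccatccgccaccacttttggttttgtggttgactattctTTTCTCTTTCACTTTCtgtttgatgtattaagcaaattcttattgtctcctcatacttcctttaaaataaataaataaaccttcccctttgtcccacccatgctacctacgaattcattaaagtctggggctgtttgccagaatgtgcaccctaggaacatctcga
Tlr3 promoter (chr8:45410331-45410630, minus strand): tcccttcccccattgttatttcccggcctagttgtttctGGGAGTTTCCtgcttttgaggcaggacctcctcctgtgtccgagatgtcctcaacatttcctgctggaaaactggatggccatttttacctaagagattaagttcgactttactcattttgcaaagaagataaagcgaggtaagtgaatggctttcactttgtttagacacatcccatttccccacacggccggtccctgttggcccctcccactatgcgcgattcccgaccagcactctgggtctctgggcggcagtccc
Tlr13 promoter (chrX:106143025-106143324, plus strand): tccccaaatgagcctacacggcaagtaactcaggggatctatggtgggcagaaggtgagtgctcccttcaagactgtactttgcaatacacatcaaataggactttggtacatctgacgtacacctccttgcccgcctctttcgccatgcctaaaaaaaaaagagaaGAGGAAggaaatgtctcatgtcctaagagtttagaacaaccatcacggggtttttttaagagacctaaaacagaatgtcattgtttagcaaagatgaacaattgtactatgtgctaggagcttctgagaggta

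The Tlr2 window holds matches to NF-kB, the factor that most of these receptors activate, at bases -173, -172 and -8 from the gene start, those at -173 and -172 overlapping. The Tlr3 window holds 1 at base -211. In the printed window of Tlr6 lie overlapping matches to the interferon-stimulated response element at bases -116 and -110. The other window of Tlr6, not printed, holds a match to none of these motifs. The Tlr13 window holds a match to PU.1, a factor that macrophages need to develop, at base -83. Of all 32851 windows 4.51% hold the NF-kB motif, 3.44% the interferon element, 7.81% the AP-1 motif and 28.3% the PU.1 motif, against 2, 1, 1 and 4 of the 10 windows of these receptors. These letters are a description of the windows and not of bound factors.

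Signals are log2 values after the authors' background correction and quantile normalization, on which a difference of 1 is a 2-fold change, and levels of different probes cannot be set against each other. A gene was called in a comparison when the limma test gave an adjusted p under 0.05 and the change was at least 1.5-fold. Of the 10 receptors 8 stood well above background on all 25 arrays. Tlr3 did so on 20 and Tlr5 on 2, so Tlr5 was tested in 0 comparisons. The 9 others were tested in every comparison except Tlr3 between acute and re-stimulated Pam3CSK4, where all 5 arrays were not well above background.

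**Figure D1:**
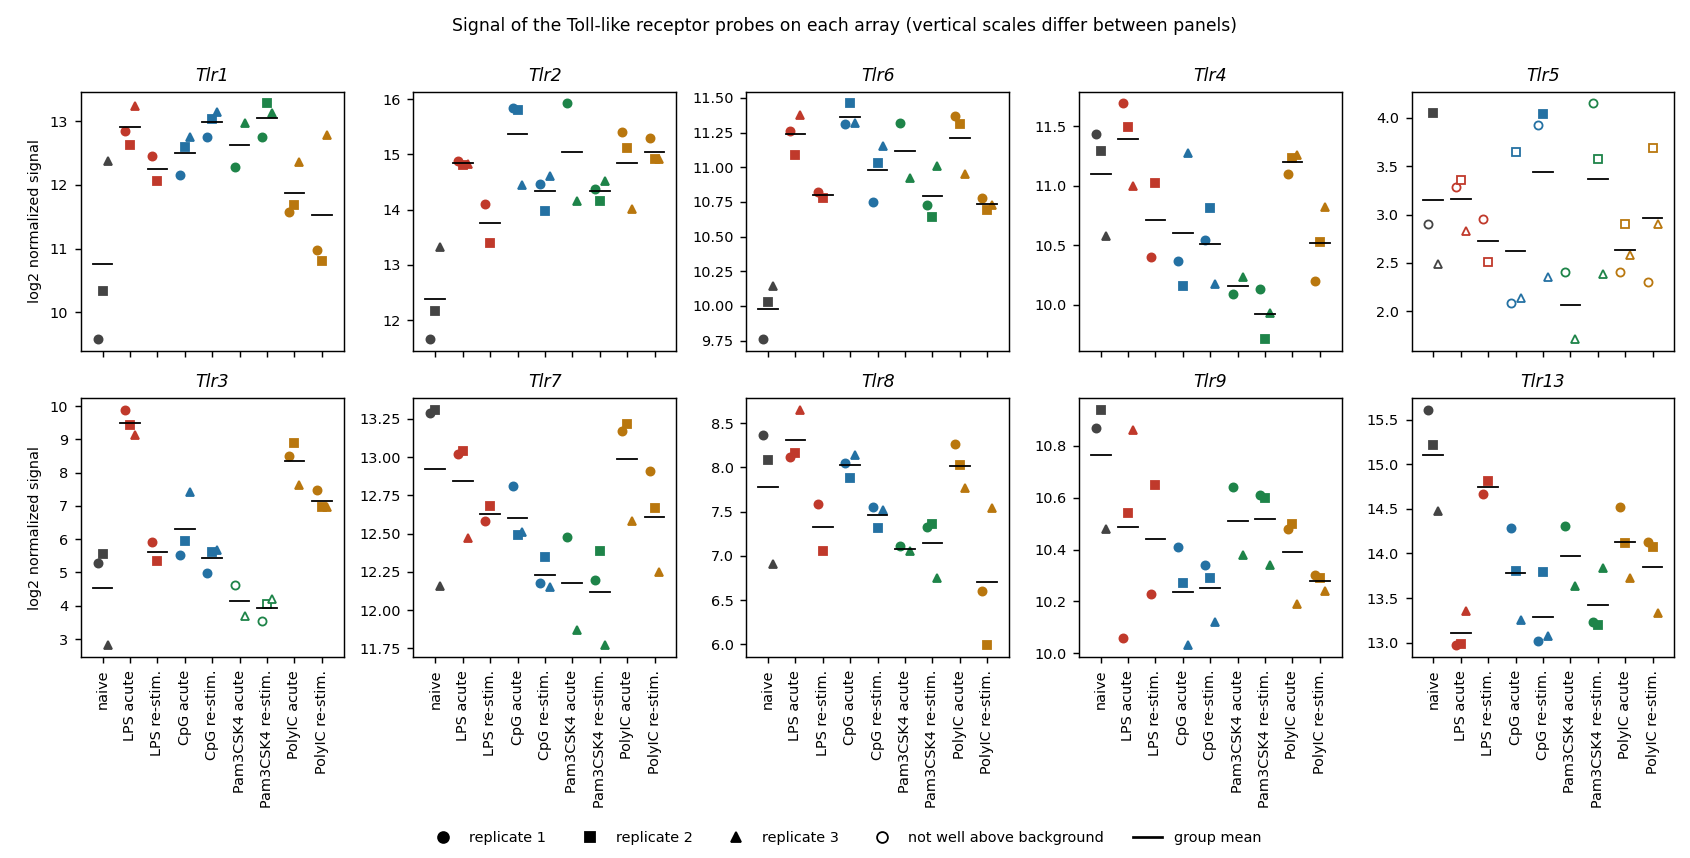
Log2 normalized signal (vertical axis) of the probe of each receptor on each of the 25 arrays, by condition (horizontal axis). Symbols mark the replicate number, open symbols are not well above background and bars are group means. Tlr2 and Tlr6 sit lowest in naïve cells, Tlr3 highest in acute LPS and Tlr13 highest in naïve cells.

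Some arrays stood apart before any comparison. On naïve replicate 3, 74.9% of the spots were well above background, against 43.1 to 55.0% on the other 24 arrays. All 8 macrophage markers on the array, among them Csf1r, Cd68 and Mertk, were well above background on every array, with a summed log2 level of 19.01 to 19.78. Granulocyte markers varied widely: the summed level of 7 of them was 16.14 and 16.71 on naïve replicates 1 and 2 but 12.35 on naïve replicate 3, and 11.71 to 12.31 on the acute LPS arrays. The arrays numbered 3 were also low in acute CpG (12.65), acute Pam3CSK4 (12.79), acute Poly(I:C) (12.47) and re-stimulated Poly(I:C) (12.88), while the other arrays of those groups lay between 16.11 and 18.06. Ly6g, which defines neutrophils, was 8.91 and 9.60 on the first 2 naïve arrays, 2.54 on the last, and 2.96 to 3.78 with acute LPS. In re-stimulated CpG and Pam3CSK4 the arrays numbered 3 summed to 15.02 and 15.76, with S100a8 at 14.83 and 15.66. Ly6g (3.81 and 2.38), S100a9 (5.65 and 5.93), Mpo (3.34 and 3.22) and Ngp (2.69 and 2.96) were lower there than on the other arrays of those groups. Camp (10.79 and 10.45) lay near the others, and Elane (11.14 and 11.08) somewhat below. Arrays with the same number share a slide, except that the acute LPS arrays have slides of their own, other scan days and an earlier design file, so slide and stimulus cannot be told apart in any comparison with acute LPS. Whether granulocyte RNA has a part in the receptor values was not tested. In such bulk RNA, fewer cells of a type and less RNA per cell cannot be told apart.

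**Figure D2:**
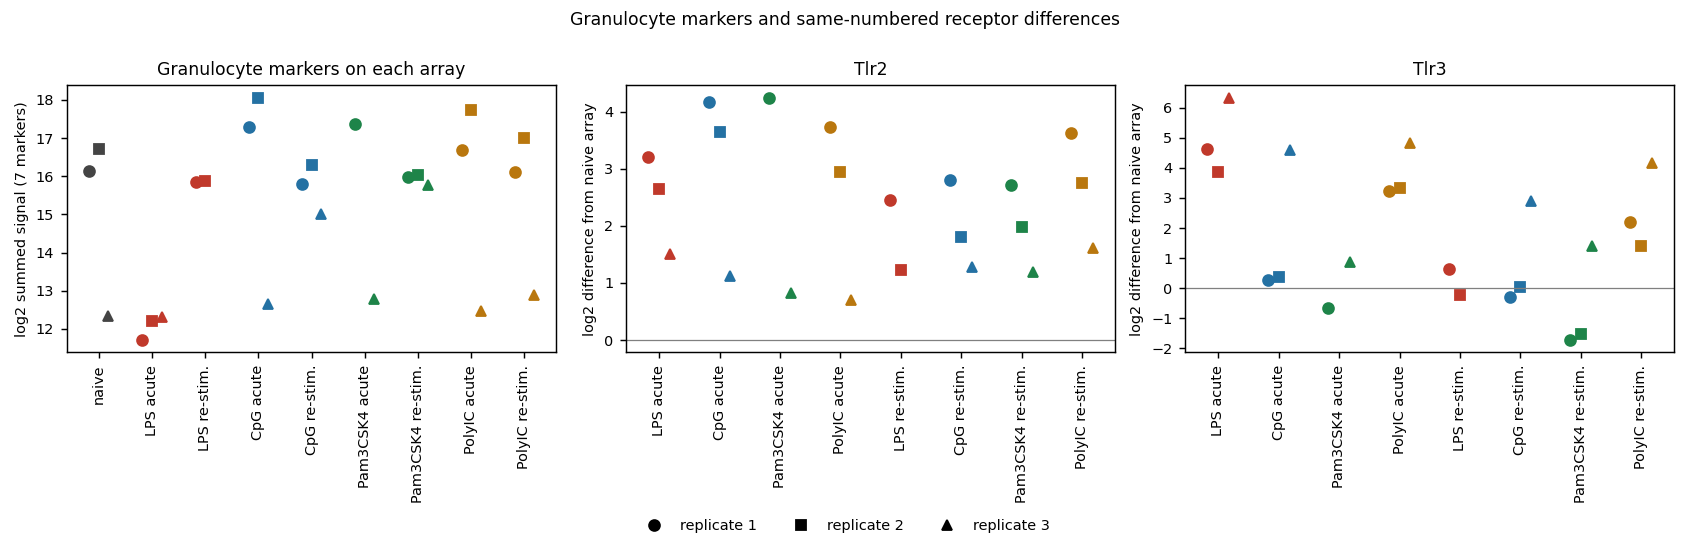
Left, log2 of the summed signal of 7 granulocyte markers on each array. Middle and right, log2 difference of Tlr2 and of Tlr3 between each stimulated array and the naïve array with the same replicate number. Low in the left panel lie the acute LPS arrays and the arrays numbered 3 of naïve, acute CpG, acute Pam3CSK4 and both Poly(I:C) groups. Differences between arrays numbered 3 are smaller for Tlr2 and higher for Tlr3 than those between arrays with other numbers. Both arrays of a difference change with the number.

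The first comparison set acute against naïve cells, asking which receptors a macrophage adjusts when it meets a ligand once. Tlr2, Tlr6 and Tlr3 rose, and Tlr13 fell, with LPS. Tlr2 and Tlr6 also rose with CpG, and Tlr6 with Poly(I:C). Of the 9 tested receptors 4 were called with LPS, 3 higher and 1 lower, where 26.5% of all tested probes were called. With CpG 2 were called, both higher (5.72% of all probes), with Poly(I:C) 1 (6.03%) and with Pam3CSK4 0 (0%). The median change of the tested receptors was 0.53 with LPS, 0.24 with CpG, 0.24 with Poly(I:C) and -0.39 with Pam3CSK4 (the value of Tlr3, not well above background there), beside -0.01, -0.07, -0.10 and 0.01 over all tested probes. All 4 comparisons share the naïve arrays. For Pam3CSK4, limma called 0 of 27841 probes, the smallest adjusted p being 0.288, while 3458 had an unadjusted p under 0.05. In 1 limma fit of all 9 groups it called 1605 probes, without naïve replicate 3 it called 584 (2.24%), 0 of them a receptor, and with each array scaled to a common median 228.

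**Figure D3:**
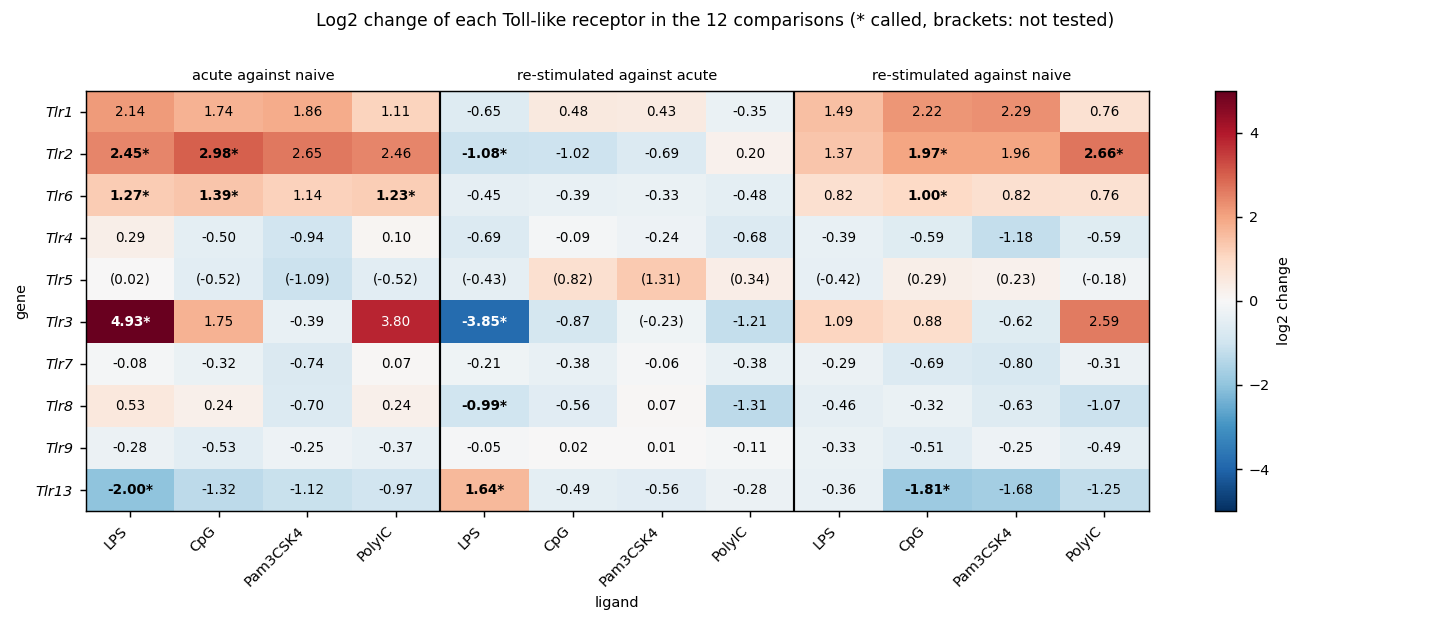
Log2 change of each receptor (rows) in the 12 comparisons of 2 groups (columns, by ligand within 3 steps). Bold values with a star are called and values in brackets were not tested. The first block shows Tlr2 between 2.45 and 2.98 and Tlr6 between 1.14 and 1.39 for every ligand, and the middle block shows Tlr13 at 1.64 for LPS and below 0 for the others.

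Tlr2, the lipopeptide receptor, is read by a probe at chr3:83640344-83640403 (mm9, the build of the array files), and its value is the mean of 10 spots. Naïve cells read 11.66, 12.17 and 13.32. Acute LPS arrays read 14.88, 14.81 and 14.82, acute CpG 15.84, 15.81 and 14.45, acute Poly(I:C) 15.40, 15.12 and 14.02, and the 2 acute Pam3CSK4 arrays 15.92 and 14.15. All 11 acute arrays lay above all naïve ones. The rise was 2.45 ± 0.42 (SE; 5.47-fold, adjusted p = 0.00913) with LPS and 2.98 ± 0.57 (7.89-fold, adjusted p = 0.0401) with CpG. The differences of 2.46 ± 0.55 with Poly(I:C) (adjusted p = 0.0585) and 2.65 ± 0.73 with Pam3CSK4 (adjusted p = 0.304) were of like size but not called. The LPS call held in all 20 alternative settings, which include leaving out each array, with adjusted p at most 0.0387. Between same-numbered arrays, which share a slide and whose deviations go together, the CpG difference was 4.17, 3.64 and 1.13. With the replicate block the CpG call was lost (adjusted p = 0.102), as it was without naïve replicate 1 or 2 or without CpG acute replicate 1 or 2 (0.118 to 0.146).

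Tlr6, a partner of Tlr2 for diacylated lipopeptides (probe at chr5:65344365-65344424), had no group with an SD above 0.28. It read 9.76, 10.03 and 10.14 in naïve cells, 11.26, 11.09 and 11.38 with LPS, 11.31, 11.46 and 11.32 with CpG, 11.37, 11.31 and 10.95 with Poly(I:C) and 11.32 and 10.92 with Pam3CSK4. Every acute array exceeded every naïve one. The rise was 1.27 ± 0.20 with LPS (2.41-fold, adjusted p = 0.00643), 1.39 ± 0.18 with CpG (2.62-fold, adjusted p = 0.0192) and 1.23 ± 0.20 with Poly(I:C) (2.35-fold, adjusted p = 0.0278). For Pam3CSK4 the difference of 1.14 ± 0.25 had an adjusted p of 0.288. With each array scaled to a common median in place of quantile normalization these 3 calls were lost (adjusted p = 0.113, 0.0573 and 0.167), the differences being 1.49, 2.00 and 1.61. There the median of all tested probes lay at 0.21 with LPS, 0.43 with CpG and 0.28 with Poly(I:C). The replicate block gave adjusted p = 0.0514 for CpG and 0.0660 for Poly(I:C), and leaving out naïve replicate 1 or 2, or acute replicate 1 or 2 of the ligand, also ended those 2 calls (0.0763 to 0.133).

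Tlr1, the other partner of Tlr2 (triacylated lipopeptides; probe at chr5:65316115-65316174), passed the test in 0 of the acute comparisons. Its naïve arrays spread from 9.58 and 10.34 to 12.37, the last being replicate 3. With LPS it read 12.85, 12.63 and 13.24, with CpG 12.15, 12.60 and 12.76, with Pam3CSK4 12.28 and 12.98, and with Poly(I:C) 11.58, 11.69 and 12.36. Only the LPS arrays cleared all 3 naïve ones. The differences were 2.14 ± 0.69 (adjusted p = 0.0652), 1.74 ± 0.71 (0.213), 1.86 ± 0.88 (0.469) and 1.11 ± 0.72 (0.441). Without naïve replicate 3 they became 2.94 ± 0.31 with LPS (adjusted p = 0.00103), 2.54 ± 0.32 with CpG (0.0129) and 1.91 ± 0.35 with Poly(I:C) (0.0315), all called, in fits that called 37.8%, 11.1% and 10.8% of all probes.

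Tlr3, the double-stranded RNA receptor, had group means at least 5.55 apart, the widest range of the family, its lowest group being not well above background (probe at chr8:46481729-46481788). The naïve arrays read 5.27, 5.56 and 2.81. Acute LPS gave 9.89, 9.42 and 9.13, acute Poly(I:C) 8.51, 8.90 and 7.63, acute CpG 5.54, 5.95 and 7.41, and acute Pam3CSK4 4.63 and 3.68, both not well above background. LPS and Poly(I:C) arrays all lay above the naïve arrays, and those of CpG and Pam3CSK4 overlapped them. With LPS the rise was 4.93 ± 0.73 (30.6-fold, adjusted p = 0.00568), a call that held in all 20 alternative settings (2.99 to 5.44, adjusted p at most 0.0288). Naïve replicate 3, marked well above background at 2.81, read below both acute Pam3CSK4 arrays and lowers the naïve mean. Without it the LPS rise was 4.06 ± 0.27 (adjusted p = 0.000279, with 37.8% of all probes called). For Poly(I:C), the ligand of this receptor, the difference of 3.80 ± 0.79 (13.9-fold) had an adjusted p of 0.05003 and so missed the threshold. It passed with the replicate block (adjusted p = 0.0384), without naïve replicate 3 (2.93 ± 0.40, 0.0165) and without the arrays of slide 3 (3.29 ± 0.21, 0.00354; 25.8% of all probes called there). Of 20 alternative settings 10 called this Poly(I:C) difference, the highest adjusted p being 0.189 (without acute Poly(I:C) replicate 2). CpG gave 1.75 ± 0.86 (adjusted p = 0.289), where the same-numbered differences were 0.27, 0.38 and 4.60.

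Tlr13, a receptor for bacterial ribosomal RNA (probe on the X chromosome at chrX:103355773-103355832), went the other way. It read 15.61, 15.22 and 14.47 in naïve cells and 12.97, 12.99 and 13.35 with acute LPS, a fall of 2.00 ± 0.33 on the log2 scale (3.99-fold, adjusted p = 0.00774). CpG arrays read 14.29, 13.80 and 13.25 (-1.32 ± 0.40, adjusted p = 0.114), Pam3CSK4 arrays 14.31 and 13.64 (-1.12 ± 0.43, 0.395) and Poly(I:C) arrays 14.52, 14.12 and 13.73 (-0.97 ± 0.36, 0.187). Each acute array of LPS, CpG and Pam3CSK4 was below all naïve arrays, while the highest Poly(I:C) array exceeded the lowest naïve one. Same-numbered arrays differed by -1.33, -1.42 and -1.22 with CpG, and the replicate block called that difference (adjusted p = 0.0499). With median scaling the LPS fall was 1.49 and not called (adjusted p = 0.112); there the median of all tested probes lay at 0.21.

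The remaining receptors did not pass in any acute comparison. Tlr4, the LPS receptor (chr4:66503470-66503529), read 11.43, 11.29 and 10.58 in naïve cells and 11.69, 11.49 and 11 with its own ligand, a difference of 0.29 ± 0.31 (adjusted p = 0.508). With Pam3CSK4 it read 10.09 and 10.23, below all naïve arrays, at -0.94 ± 0.32 (adjusted p = 0.360). Tlr9, the CpG receptor (chr9:106128979-106129038), read 10.87, 10.94 and 10.48 in naïve cells and 10.41, 10.27 and 10.03 with CpG (-0.53), and kept the narrowest range of group means of the tested receptors, 0.53 between the lowest and the highest. Tlr7 (chrX:163742863-163742922) ranged over 0.87 and Tlr8 (chrX:163680626-163680685) over 1.60 between their extreme groups. In acute against naïve cells Tlr7 differed by -0.74 to 0.07 and Tlr8 by -0.70 to 0.53. A further Tlr7 probe and a further Tlr8 probe, both well above background on all 25 arrays, were called in no comparison. A last Tlr7 probe was well above background on 3 arrays and the second Tlr4 probe on 0. Tlr5 (chr1:184906031-184906090) read 1.71 to 4.15 over all arrays and was well above background only on naïve replicate 2 (4.05) and re-stimulated CpG replicate 2 (4.04).

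The second comparison set re-stimulated against acute cells, asking how a macrophage that has met the ligand before differs on the second meeting. With LPS, Tlr3, Tlr2 and Tlr8 were lower and Tlr13 was higher in re-stimulated cells. These 4 of 9 tested receptors compare with 34.2% of all probes called. With CpG (3.56% of all probes), Poly(I:C) (4.93%) and Pam3CSK4 (0%) 0 receptors were called. The median change of the tested receptors was -0.65 with LPS, -0.39 with CpG, -0.38 with Poly(I:C) and -0.15 with Pam3CSK4, beside -0.02, 0.06, 0.00 and 0.02 over all probes. For Pam3CSK4 limma called 0 of 25427 probes (smallest adjusted p 0.128, with 3461 at an unadjusted p under 0.05), and 736 in the fit of all 9 groups. Granulocyte markers summed to 15.86 and 15.87 on the re-stimulated LPS arrays against 11.71 to 12.31 on the acute ones, so they move with this comparison too, and their part in it was not tested.

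Tlr3 read 5.92 and 5.34 in cells re-stimulated with LPS against 9.89, 9.42 and 9.13 in acute cells. It fell by 3.85 ± 0.31 on the log2 scale (14.4-fold, adjusted p = 0.000731), back to within 1.09 ± 0.91 of the naïve mean. Only adding the array that the authors had left out ended this call (adjusted p = 0.0555, with a difference of -4.89). With Poly(I:C) it read 7.48, 6.97 and 6.97 after re-stimulation against 8.51, 8.90 and 7.63, all lower, at -1.21 ± 0.36 (adjusted p = 0.1). CpG gave 4.99, 5.61 and 5.69 (-0.87 ± 0.50, adjusted p = 0.358), overlapping the acute arrays.

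Tlr13 rose by 1.64 ± 0.22 (3.11-fold, adjusted p = 0.00324) between acute and re-stimulated LPS, from 12.97, 12.99 and 13.35 to 14.67 and 14.81. In the other ligands it was not higher on the second meeting, with differences of -0.49 ± 0.34 (CpG), -0.56 ± 0.33 (Pam3CSK4) and -0.28 ± 0.31 (Poly(I:C)). Re-stimulated arrays read 13.02, 13.79 and 13.07 with CpG, 13.23, 13.20 and 13.84 with Pam3CSK4 and 14.13, 14.07 and 13.33 with Poly(I:C). Adding the left-out LPS array gave 1.12 ± 0.47 (adjusted p = 0.221).

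Tlr2 read 14.11 and 13.40 in re-stimulated LPS cells, below all acute ones, and fell by 1.08 ± 0.26 (2.11-fold, adjusted p = 0.0227). Tlr8 read 7.59 and 7.06 against 8.12, 8.16 and 8.65 and fell by 0.99 ± 0.27 (1.98-fold, adjusted p = 0.0357). The Tlr2 call was lost without acute LPS replicate 1 or 2 or without re-stimulated replicate 2 (adjusted p 0.0555 to 0.119), and the Tlr8 call without any of these 3 arrays or re-stimulated replicate 1 (0.0528 to 0.192). The second Tlr8 probe differed by -0.98 ± 0.46 (adjusted p = 0.145). With Poly(I:C), Tlr8 read 6.6, 5.99 and 7.54 against 8.26, 8.03 and 7.77, a difference of -1.31 ± 0.40 (adjusted p = 0.109) that became -1.85 ± 0.26 (0.0176) without the arrays of slide 3. In that setting 5 receptors were called lower on re-stimulation with Poly(I:C), namely Tlr1, Tlr4, Tlr6, Tlr3 and Tlr8, where 25.7% of all probes were called. Tlr2 with CpG was then called as well, at -1.60 ± 0.24 (adjusted p = 0.0338; 7.22% of all probes), from -1.02 ± 0.41 with all arrays.

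The third comparison set re-stimulated against naïve cells, that is, where the receptors stood after both contacts relative to cells that met nothing. Tlr2 and Tlr6 were higher and Tlr13 lower with CpG, which makes 3 of 9 tested receptors (13.2% of all probes called). Tlr2 was higher with Poly(I:C), 1 of 9 (9.03%). With LPS (5.67%) and Pam3CSK4 (5.36%) 0 were called. The median change of the receptors was -0.32 with CpG, -0.31 with Poly(I:C), -0.29 with LPS and -0.62 with Pam3CSK4 (again that of Tlr3), beside 0.01, -0.04, 0.00 and 0.03 over all probes.

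Tlr2 read 14.47, 13.97 and 14.60 with CpG (1.97 ± 0.45, adjusted p = 0.0400), 15.30, 14.91 and 14.92 with Poly(I:C) (2.66 ± 0.44, 0.0228) and 14.37, 14.16 and 14.51 with Pam3CSK4 (1.96 ± 0.43, 0.0576), all above the highest naïve array. Re-stimulated LPS differed by 1.37 ± 0.56 (adjusted p = 0.206). Tlr6 with CpG read 10.75, 11.03 and 11.15, a rise of 1.00 ± 0.20 (2.00-fold, adjusted p = 0.0278), and Tlr13 fell by 1.81 ± 0.37 (3.5-fold, adjusted p = 0.0299). With the replicate block Tlr2 was not called with CpG (adjusted p = 0.0510) or Poly(I:C) (0.0588), while Tlr13 with Poly(I:C) was (-1.25, 0.0445). For LPS, whose same-numbered arrays share slides here but correlated by 0.05 to 0.13 only, the block leaves naïve replicate 3 without a partner and called Tlr1 (2.29, adjusted p = 0.0320) and Tlr2 (1.84, 0.0496). With median scaling Tlr13 with CpG differed by -0.54 (adjusted p = 0.528), where the median of all probes lay at 0.78. The CpG calls were each lost when any of its 3 arrays, or naïve replicate 1 or 2, was left out (0.0650 to 0.123), and the Poly(I:C) call without naïve replicate 1 or 2 or re-stimulated replicate 1 or 2 (0.0619 to 0.0921).

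Leaving out naïve replicate 3 raised the count of calls in this step from 4 to 24, 12 higher and 12 lower, while the share of all probes called was 25% (LPS), 26.6% (CpG), 16.2% (Pam3CSK4) and 16.1% (Poly(I:C)). Tlr1 was then higher by 2.29 ± 0.32 with LPS (adjusted p = 0.00933), 3.02 ± 0.27 with CpG (0.00190) and 3.1 ± 0.30 with Pam3CSK4 (0.00536). Tlr4, the LPS receptor, was then lower, at -0.85 ± 0.23 with CpG (adjusted p = 0.0430) and -1.44 ± 0.20 with Pam3CSK4 (0.0120), where its arrays read 10.13, 9.71 and 9.93. With all arrays the Pam3CSK4 value was -1.18 ± 0.28 (adjusted p = 0.0670). Tlr7 was lower, at -0.67 ± 0.17 with LPS (adjusted p = 0.0442), -1.07 ± 0.17 with CpG (0.00791) and -1.18 ± 0.24 with Pam3CSK4 (0.0299). The other bright Tlr7 probe read 12.77 and 12.59 on naïve replicates 1 and 2 and, closer than the first probe, 12.33 and 12.23 with LPS. It read 11.62, 12.08 and 11.96 with CpG and 11.8, 11.47 and 11 with Pam3CSK4. Whether that probe passed in this setting was not recorded. Tlr9, the CpG receptor, was lower with CpG, at -0.65 ± 0.17 (adjusted p = 0.0368). Tlr3 with Poly(I:C) was higher by 1.72 ± 0.24 (adjusted p = 0.0124). The single naïve array numbered 3, which differs from its group in spots above background and in granulocyte markers, moves these counts by more than 1.5 times.

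With all arrays of slide 3 left out, which are those numbered 3 other than acute LPS and a choice made after seeing the data, more receptors were called and so were more probes in all. Against naïve cells 5 receptors were called with acute CpG (17.7% of all probes), 5 with acute Poly(I:C) (25.8%) and 5 with acute Pam3CSK4 (14.9%), the last from a single acute array assumed to vary like the naïve ones. Tlr1, Tlr2 and Tlr6 were higher in all 3 of these comparisons. After re-stimulation 6 were called against naïve cells with CpG (25.8%), 8 with Pam3CSK4 (24.4%) and 7 with Poly(I:C) (29.5%). Tlr2 and Tlr6 were higher and Tlr8 and Tlr13 lower with each of these ligands. The second Tlr8 probe read 7.84 and 8.11 on the naïve arrays left, 7.84 and 7.41 with CpG and 7.44 and 7.63 with Pam3CSK4. With Poly(I:C) it read 6.76 and 6.23. Whether that probe passed in this setting was not recorded. Between re-stimulated and acute Pam3CSK4 0 were called (3.88%), Tlr2 differing by -1.65 ± 0.27 (adjusted p = 0.0516).

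By group mean, Tlr2 ran from acute CpG (15.36 ± 0.79, SD) through re-stimulated Poly(I:C) (15.05 ± 0.22), acute Pam3CSK4 (15.03 ± 1.25), acute Poly(I:C) (14.85 ± 0.73), acute LPS (14.84 ± 0.03), re-stimulated CpG (14.35 ± 0.33), re-stimulated Pam3CSK4 (14.34 ± 0.18) and re-stimulated LPS (13.76 ± 0.51) to naïve (12.38 ± 0.85). Neighbours among the first 5 overlapped, and re-stimulated LPS stood clear of both of its own. Tlr3 ran from acute LPS (9.48 ± 0.38) through acute Poly(I:C) (8.34 ± 0.65) and re-stimulated Poly(I:C) (7.14 ± 0.29), which did not overlap each other in that order, to acute CpG (6.30 ± 0.98), re-stimulated LPS (5.63 ± 0.41), re-stimulated CpG (5.43 ± 0.39) and naïve (4.55 ± 1.51), whose neighbours all overlapped, with both Pam3CSK4 groups, not well above background, last (4.15 ± 0.67 and 3.93 ± 0.33). For Tlr13 naïve (15.10 ± 0.58) and re-stimulated LPS (14.74 ± 0.10) led and overlapped, acute LPS was last (13.11 ± 0.21), and the 6 other groups between them (13.29 to 14.13) overlapped their neighbours.

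Whether ligands differ from each other was tested in 1 limma fit of all 9 groups, with the 6 pairs of ligands compared for the acute level and for the change on re-stimulation. Each kind gave 54 tests on the receptors, of which 5 were called. Over all probes, 0.0292 to 17.6% were called per pair for acute levels and 0.00325 to 7.2% for changes on re-stimulation. The replicate block added Tlr7 between acute Pam3CSK4 and Poly(I:C) (-0.73, adjusted p = 0.0358) and Tlr13 between acute LPS and Poly(I:C) (-1.02, 0.0312). The replicate numbers do not pair the acute LPS arrays, which have slides of their own. Without the block the adjusted p of that Tlr13 difference was 0.0569. Tlr3 was higher in acute LPS than in acute CpG (3.18 ± 0.58, adjusted p = 0.00147; 15.5% of all probes called). It was at least 40.0-fold higher than in acute Pam3CSK4 (5.32 ± 0.64, adjusted p = 3.28e-05; 17.6%), where both arrays were not well above background. Folds against acute Pam3CSK4 take the readings of its arrays (mean 4.15) as upper limits. Tlr3 compared as follows between the other ligands. The receptor was at least 18.2-fold higher in acute Poly(I:C) than in acute Pam3CSK4 (-4.19 ± 0.64 as Pam3CSK4 minus Poly(I:C), adjusted p = 0.000404; 6.48%). Between LPS and Poly(I:C) the difference was 1.13 ± 0.58 (adjusted p = 0.218; 10.7%), between CpG and Poly(I:C) -2.05 ± 0.58 (0.0529; 3.92%) and acute CpG exceeded acute Pam3CSK4 at least 4.41-fold without a call (0.412; 0.0292%). Tlr4 and Tlr8 were each higher in acute LPS than in acute Pam3CSK4, by 1.23 ± 0.32 (adjusted p = 0.0118) and 1.23 ± 0.39 (0.0350).

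**Figure D4:**
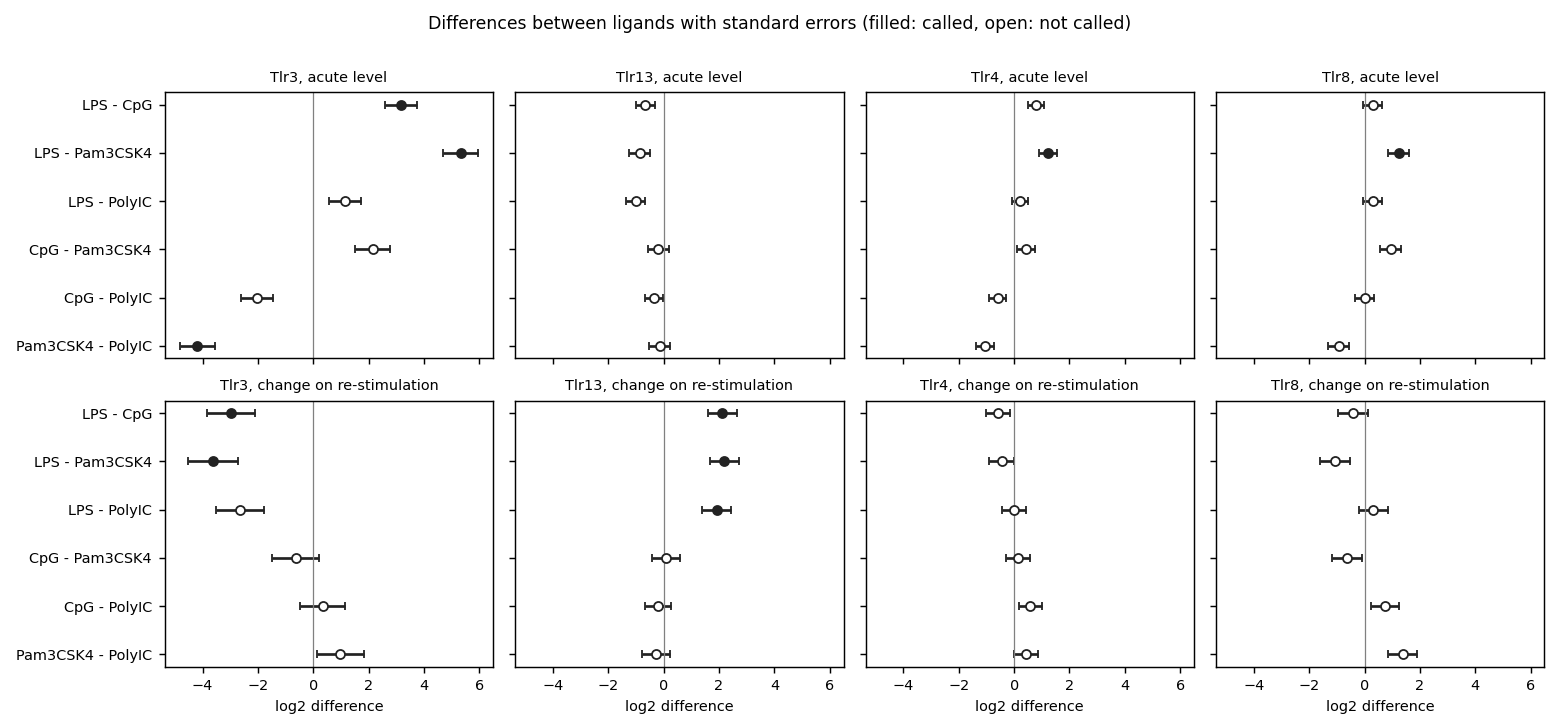
Log2 difference (horizontal axis) with its standard error between pairs of ligands (vertical axis), the first minus the second, for 4 receptors. The upper row gives acute levels and the lower row changes from acute to re-stimulated cells, and filled points are called. The 3 filled points of Tlr13 lie at 1.91 to 2.19, each for LPS against another ligand.

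The change on re-stimulation of Tlr13 differed between LPS and each other ligand, by 2.12 ± 0.51 against CpG (adjusted p = 0.0218; 6.35% of all probes called), 2.19 ± 0.53 against Pam3CSK4 (0.0213; 7.2%) and 1.91 ± 0.51 against Poly(I:C) (0.0435; 3.61%). That of Tlr3 differed by -2.98 ± 0.86 between LPS and CpG (adjusted p = 0.0469). A call between LPS and Pam3CSK4 (adjusted p = 0.0248) has no measured size, since all 5 Pam3CSK4 arrays were not well above background for this receptor. All of these turn on the acute LPS arrays with their own slides. For the 3 pairs without LPS, the changes on re-stimulation gave 0 calls among the receptors, and of all probes 0.00325% were called between CpG and Pam3CSK4, 0.0357% between CpG and Poly(I:C) and 0.101% between Pam3CSK4 and Poly(I:C). Without the arrays of slide 3, Tlr2 and Tlr8 were called there between CpG and Poly(I:C) (-1.45 ± 0.38, adjusted p = 0.0340, and 1.31 ± 0.37, 0.0450) and between Pam3CSK4 and Poly(I:C) (-1.50 ± 0.42, 0.0493, and 2.08 ± 0.41, 0.0113). Tlr2 was called between no pair of acute ligands, with differences of -0.53 to 0.52 with standard errors of 0.47 to 0.53. Without slide 3 it was lower in acute LPS than in acute CpG (-0.99 ± 0.24, adjusted p = 0.00959) and than in acute Pam3CSK4 (-1.08 ± 0.31, 0.0281), the latter then resting on 1 array.

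A list of 31 genes that work with these receptors, of which 30 are on the array, was described in the same fits. With acute LPS 4 of 27 tested rose and 2 fell, with CpG 2 rose, with Poly(I:C) 1 rose and with Pam3CSK4 0 were called, where the shares of all probes were 26.5%, 5.72%, 6.03% and 0%. The median change of those tested was -0.09 with LPS, beside -0.01 over all tested probes. On re-stimulation against acute cells 4 rose and 2 fell with LPS and 1 rose and 2 fell with CpG (34.2% and 3.56% of all probes). Against naïve cells, re-stimulation with CpG left 3 higher and 4 lower, with Pam3CSK4 2 higher and 1 lower, and with LPS and Poly(I:C) 1 higher each (13.2%, 5.36%, 5.67% and 9.03% of all probes).

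**Figure D5:**
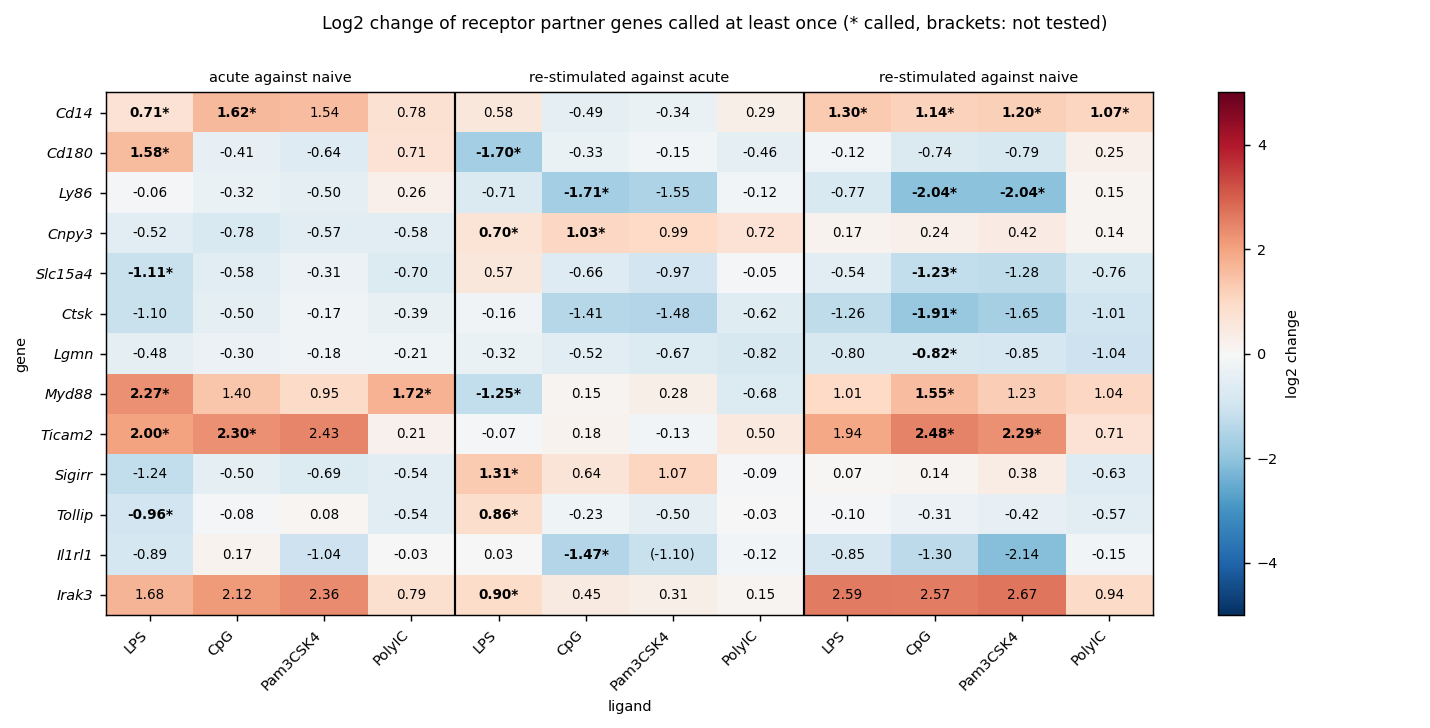
Log2 change of the 13 partner genes called at least once (rows) in the 12 comparisons of 2 groups (columns, by ligand within 3 steps). Bold values with a star are called and values in brackets were not tested. Cd14 is starred in 6 comparisons, all of stimulated against naïve cells.

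Among co-receptors, Cd14, which hands LPS to Tlr4, rose by 0.71 ± 0.20 with acute LPS (adjusted p = 0.0456) and 1.62 ± 0.25 with acute CpG (0.0257), and re-stimulated cells of all 4 ligands had it 1.07 to 1.30 above naïve. Ly96, the partner that binds LPS with Tlr4, was called in 0 comparisons. Cd180, a Tlr4 homologue, rose by 1.58 ± 0.23 with acute LPS (adjusted p = 0.00515) and fell by 1.70 ± 0.24 on re-stimulation (0.00414). Ly86, which binds Cd180, was lower in cells re-stimulated with CpG and with Pam3CSK4 than in naïve cells, at -2.04 in both (adjusted p = 0.0189 and 0.0279).

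Of the adapters, Myd88, used by all these receptors but Tlr3, rose by 2.27 ± 0.28 with acute LPS (4.81-fold, adjusted p = 0.00310) and 1.72 ± 0.25 with acute Poly(I:C) (0.0211), and fell by 1.25 ± 0.23 between acute and re-stimulated LPS (0.00951). Ticam2, which carries Tlr4 signals to the interferon arm, rose by 2.00 ± 0.53 with acute LPS (adjusted p = 0.0366) and 2.30 ± 0.40 with acute CpG (0.0333). Ticam1 and Tirap were called in 0 comparisons. For delivery to endosomes, Unc93b1, the chaperone that carries the nucleic acid receptors there, and Hsp90b1 were called in 0 comparisons, Slc15a4, an endosomal transporter, fell by 1.11 ± 0.22 with acute LPS (adjusted p = 0.0140), and Cnpy3, a folding factor for several of these receptors, was higher in re-stimulated than acute cells with LPS (0.70 ± 0.19) and CpG (1.03 ± 0.17). The inhibitors Irak3 (0.90 ± 0.21, adjusted p = 0.0212), Sigirr (1.31 ± 0.23, 0.00799) and Tollip (0.86 ± 0.25, 0.0420) were higher in re-stimulated than in acute LPS cells. Ctsk and Lgmn, proteases of the endosomal and lysosomal compartment, fell by 1.91 ± 0.38 and 0.82 ± 0.17 between naïve and re-stimulated CpG. The LPS steps here rest on the same acute arrays as those of the receptors.

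Over the 9 group means, the patterns closest to those of the receptors of the 4 ligands were found among 13752 genes by Pearson's r, as a description of means that share slides. Among the nearest to Tlr3 were Tmem171 (r = 0.995) and Ifih1 (0.989), the latter a cytosolic sensor of double-stranded RNA. Among the nearest to Tlr2 were Niacr1 (0.944) and Pik3r6 (0.925). For Tlr4 they were Elf1 (0.950), Mertk (0.949), one of the macrophage markers, and 2810455B08Rik (0.926), and for Tlr9 Atp6ap1 (0.926), Dvl3 (0.924) and E130304I02Rik (0.916). Within the family the highest r were between Tlr4 and Tlr7 (0.92) and between Tlr2 and Tlr6 (0.89).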

How the data were processed

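RNA of naïve, acute and re-stimulated BMDM was hybridised to 1-colour Agilent arrays. The deposited log2 values are the authors' RMA background-corrected and quantile-normalized signals of 25 arrays. The deposited scanner files hold spot intensities, from which the authors made them, in build mm9, and were used for background marks and for the alternatives. The authors left out re-stimulated LPS replicate 3 and acute Pam3CSK4 replicate 2 for low quality. The number of arrays limits the precision. The receptors, the gene lists and the tests were chosen with earlier results of these data known.

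Tests took in the probes that the scanner software marked as well above background on 2 or more arrays of a compared group. Each comparison of 2 groups was fitted with limma 3.58.1 (R 4.3.3), as were the differences between ligands in 1 fit of 9 groups, with Benjamini-Hochberg adjustment over all tested probes. The scripts were tested on simulated data. A gene with several probes was read by the one with the highest mean. Named are all receptors, the partner genes called at least once and the 3 genes most like Tlr2, Tlr3, Tlr4 and Tlr9, beside members of the lists that were called in no comparison. Some of the genes most like Tlr2 and Tlr3 are not reported here. Outside acute LPS, arrays with the same number share a slide, and their deviations from group means correlated by 0.14 to 0.55 in the CpG, Pam3CSK4 and Poly(I:C) comparisons, so the numbers pair them there. With acute LPS the correlation was 0.02 to 0.16 and the slides differ.

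Alternatives changed the background correction, normalization, filter, fold, fit, block and arrays. Leaving out slide 3 was chosen after seeing the data. Exon and UTR positions of the probes were not determined.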

Additional observations from a re-analysis of the deposited data

Results flagged for a closer look

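The limma fit of all 9 groups called 10 differences between ligands in a receptor, by a test of the difference itself. For acute levels, these were Tlr3 between LPS and CpG (3.18, called in 38 of 39 alternatives), between LPS and Pam3CSK4 (5.32, 39 of 39) and between Pam3CSK4 and Poly(I:C) (-4.19, 39 of 39). Tlr4 and Tlr8 differed between LPS and Pam3CSK4, by 1.23 each, called in 36 and 31 of 39. For the change from acute to re-stimulated cells, Tlr13 differed between LPS and CpG (2.12, 32 of 39), LPS and Pam3CSK4 (2.19, 34 of 39) and LPS and Poly(I:C) (1.91, 22 of 39), and Tlr3 between LPS and CpG (-2.98, 19 of 39) and LPS and Pam3CSK4 (-3.62, 33 of 39). Tlr3 was not well above background on any Pam3CSK4 array. With its readings there taken as upper limits, 5.32 and -4.19 are lower bounds in size, and -3.62 has no measured Pam3CSK4 side. In 9 of the 10 acute LPS enters, whose slides are its own and whose granulocyte markers are low, and the part of either was not tested. Over all probes, 0.0292 to 17.6% were called per pair for acute levels and 0.00325 to 7.2% for changes on re-stimulation. The count of 10 was not tested against these shares, so it is no result about the receptors in particular.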

How the results depend on the processing

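Receptors were called 7 times in acute against naïve cells, 4 in re-stimulated against acute, 4 in re-stimulated against naïve and 10 between ligands. Leaving out each array in turn gave 4 to 13, 2 to 6, 0 to 24 and 5 to 15. Without naïve replicate 1, or without 2, the first count was 4 and that against naïve cells after re-stimulation 0, and without naïve replicate 3 they were 13 and 24. Without slide 3 the 4 counts were 20, 10, 25 and 24. With 1 fit of all groups, acute and re-stimulated against naïve had 15 and 15, and with the slide as a random block 18 and 18. With no filter on dim probes they had 4 and 1. Median scaling gave 2 in re-stimulated against acute, 7 in re-stimulated against naïve and 3 between ligands, moving the median of all probes by up to 0.78. All arrays of the series, remade, gave 0 in re-stimulated against acute and 4 between ligands. Re-stimulated against naïve gave 10 with the processed signal, 12 with normexp and 7 with probes above background on every array. Some of these settings hold fewer arrays or more probes, and the cause of the moved counts was not tested. The replicate block, for arrays paired by slide except those of acute LPS, gave 6, 3, 5 and 12. The share of all probes called moved with the setting too. For acute LPS against naïve cells it was 26.5% with all arrays used and 37.8% without naïve replicate 3. The counts in this paragraph stand without that share, so they are no result about the receptors in particular.

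Among values of changes of at least 1.5-fold between 2 groups, 957 kept direction and were called in both settings or in neither. They include changes that were never called, so 957 is not the number of calls that held. Of the others, 149 were called only in the alternative and 69 lost the call. Smaller changes that turned in some settings are not counted. A further 7 turned, all not called. Those were Tlr3 with CpG (-0.12 without slide 3), Tlr4 (0.43) and Tlr7 (0.52) with CpG and Tlr4 with Poly(I:C) (0.18) under median scaling, Tlr3 with LPS (-0.12) with all arrays remade, each in re-stimulated against naïve cells, Tlr6 in acute against naïve Pam3CSK4 (-0.30, all arrays remade), and Tlr2 in re-stimulated against acute Pam3CSK4 (0.19 without acute replicate 1, -1.57 without acute replicate 3).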
